A study of Oryza sativa with 12 samples.

Results

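The 3 genes described here are named as enzymes that build galactinol and raffinose in rice: the galactinol synthases GolS1 (LOC_Os03g20120) and GolS2 (LOC_Os07g48830) and a raffinose synthase (LOC_Os01g07530). They were chosen by identifier, by a rule that uses no measured value, although earlier results of these data were known, and were found in the deposited files of all 12 libraries, among 33780 identifiers in all. The names were given together with the identifiers. No table that ties these identifiers to names, positions or sequences was used here. RNA-seq was run on aerial parts of seedlings that were 3 weeks old, from Nip (Nipponbare, a japonica rice) and from 93-11 (an indica rice), to ask how each cultivar responds to heat stress (HS). The groups were Nip HS, Nip normal, 93-11 HS and 93-11 normal, with 3 libraries each. These are biological replicates by the methods of the study.

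All seedlings were grown in Yoshida culture solution with 10 h of light, at 800 μmol m-2 s-1, and 14 h of dark. HS seedlings were then kept at 45 °C for 36 h at a relative humidity above 80% and a light intensity of 60 to 80 μmol m-2 s-1. No normal seedlings at that light and humidity are described, and no temperature is stated for them, so heat, dim light and humid air cannot be told apart in any difference between HS and normal. The reads of each cultivar were mapped to its own genome, so the cultivar and the genome used for mapping cannot be told apart either. In whole aerial parts, fewer cells of a type and less RNA per cell also cannot be told apart.

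Galactinol synthase makes galactinol by joining galactose from UDP-galactose to myo-inositol, and it is regarded as the entry step into the raffinose family of sugars. Raffinose synthase then moves the galactose from galactinol to sucrose, which gives raffinose and frees myo-inositol. In plants these sugars are known as transport and storage carbohydrates and as compatible solutes that accumulate under drought, cold and heat, and alpha-galactosidases break them down again. In Arabidopsis, some galactinol synthase genes are known targets of heat shock factors of subclass A2 and of DREB factors.

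Expression was given as FPKM (fragments per kilobase of transcript, scaled to the mapped fragments of the library), a level per length, so that levels of different genes can be compared within a library. FPKM summed over all genes was 552167 to 561203 in Nip HS libraries, against 785851 to 798491 in Nip normal libraries. The sums were 794246 to 810922 in 93-11 HS libraries, against 582896 to 617044 in 93-11 normal libraries. The HS sum was therefore 0.703 times the normal sum in Nip and 1.35 times the normal sum in 93-11. Because the sums moved in opposite directions in the cultivars, each test of a member is also given after rescaling every library to a sum of 1000000. Rescaling shifted the log2 fold changes upon HS of single genes by a median of 0.48 in Nip and of -0.41 in 93-11. The part of the sums in the differences was not tested.

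The tissue and the treatment were checked with identifiers taken as markers from general knowledge. Markers were counted at an adjusted p below 0.01 by limma and a log2 change of 1 or more in size. By that rule 9.69% of all genes tested rose and 17.8% fell in Nip, and 22.7% rose and 27.5% fell in 93-11. Of 3 green shoot markers, 2 fell upon HS in Nip and 3 fell in 93-11. LOC_Os09g17740 fell by less than that size in Nip (log2 change -0.66, adjusted p 7.330e-06 by limma). The summed level of the green shoot markers was 3252 to 3570 FPKM in Nip HS and 12107 to 13182 FPKM in Nip normal libraries. It was 449 to 470 FPKM in 93-11 HS and 9494 to 11079 FPKM in 93-11 normal libraries. Of 3 heat shock protein markers, 2 rose in Nip and 3 rose in 93-11. Of 5 root markers, 1 was tested in Nip and rose, and 2 were tested in 93-11, of which 1 rose and 1 fell. The others were low or unlisted. The summed level of all 5 was 30.2 to 31.7 FPKM in Nip HS, 10.2 to 11.0 FPKM in Nip normal, 3.16 to 4.15 FPKM in 93-11 HS and 8.11 to 9.14 FPKM in 93-11 normal libraries. LOC_Os02g51110 made up most of the Nip HS sum (mean 29.6 FPKM). LOC_Os03g46470 was not listed in 93-11 and was counted there as 0. LOC_Os02g44310 was listed at 0 in all normal libraries of both cultivars. Green shoot markers were thus abundant in normal libraries and lower in HS libraries, above all in 93-11, and root markers were low in all groups but highest in Nip HS. The part of these markers in the results below was not tested.

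GolS1 was the member with the largest difference between the cultivars. Upon HS it fell in Nip to 5.94, 6.69 and 5.36 FPKM in Nip HS libraries 1 to 3, against 46.8, 44.7 and 46.2 FPKM in Nip normal libraries. In 93-11 it had 73.0, 70.9 and 71.8 FPKM in HS libraries, against 50.5, 53.8 and 53.4 FPKM in normal libraries. All Nip HS libraries lay far below all Nip normal libraries, whereas all 93-11 HS libraries lay above all 93-11 normal libraries, with no overlap in either cultivar.

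The mean GolS1 level was 6.0 ± 0.667 FPKM in Nip HS and 45.9 ± 1.10 FPKM in Nip normal libraries (SD, n = 3 each), which is 7.66-fold lower in HS. On the log2(FPKM + 1) scale the change was -2.75 (SE 0.072, 95% interval -2.92 to -2.58), with a Benjamini-Hochberg adjusted p of 5.315e-09 from limma. A gene was called upregulated or downregulated where its adjusted p was below 0.01 and its log2 fold change was 1 or more in size, and GolS1 was called downregulated in Nip. After rescaling to equal sums GolS1 was still called downregulated in Nip, with a log2 change of -2.33 and an adjusted p of 3.069e-08 by limma, and the level was 5.38-fold lower in HS.

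In 93-11 the mean GolS1 level was 71.9 ± 1.09 FPKM in HS and 52.6 ± 1.81 FPKM in normal libraries (SD, n = 3 each), a ratio of 1.37. The log2 change of 0.44 (SE 0.043, 95% interval 0.35 to 0.54) had an adjusted p of 1.220e-05 by limma but was below the size needed for a call. After rescaling, the GolS1 means were 89.4 ± 1.74 in 93-11 HS and 88.1 ± 2.67 in 93-11 normal libraries (SD, n = 3 each, on the scale of a sum of 1000000). The rescaled log2 change was 0.02 (95% interval -0.08 to 0.12, adjusted p 0.6597 by limma). A higher GolS1 level in 93-11 HS was thus seen in the deposited values and was not detectable when the libraries were set to equal sums. With quantile normalization the log2 change was 0.20 (95% interval 0.11 to 0.29, adjusted p 1.359e-03 by limma), below the size needed for a call. Scaling by the median ratio gave 0.21 (95% interval 0.12 to 0.31, adjusted p 1.204e-03 by limma), also below that size.

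The standing of GolS1 within each library, which does not depend on such scaling, was read as its percentile among the 23715 identifiers listed in both cultivars. GolS1 was at the 48.3 to 52.8 percentile in Nip HS libraries (median 50.3), against a median of 88.5 in Nip normal libraries. Its median percentile was 93.4 in 93-11 HS libraries and 92.0 in 93-11 normal libraries. GolS1 thus stood near the middle of the identifiers in Nip HS libraries and in the upper part in the other 3 groups.

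GolS2, the second galactinol synthase, rose upon HS in 93-11 and was not called in Nip. It had 35.8, 36.4 and 33.1 FPKM in 93-11 HS libraries, against 15.0, 15.2 and 16.2 FPKM in 93-11 normal libraries. In Nip it had 9.10, 9.71 and 9.73 FPKM in HS libraries, against 19.6, 20.7 and 19.4 FPKM in normal libraries. The 93-11 HS libraries were all higher than the 93-11 normal libraries, the Nip HS libraries were all lower than the Nip normal libraries, and the groups did not overlap in either cultivar.

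In 93-11 the mean GolS2 level was 35.1 ± 1.74 FPKM in HS and 15.5 ± 0.642 FPKM in normal libraries (SD, n = 3 each), 2.27-fold higher in HS. The log2 change of 1.13 (SE 0.059, 95% interval 1.0 to 1.27) had an adjusted p of 1.839e-07 by limma and was called. After rescaling, the log2 change of GolS2 in 93-11 was 0.73 (adjusted p 1.614e-06 by limma) and the ratio of HS to normal was 1.68, so the direction was kept but the size fell short of a call. The call of GolS2 in 93-11 was also lost after quantile normalization (0.97) and after scaling by the median ratio (0.91).

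In Nip the mean GolS2 level was 9.51 ± 0.358 FPKM in HS and 19.9 ± 0.701 FPKM in normal libraries (SD, n = 3 each), a level 2.09-fold lower in HS. The log2 change was -0.99 (SE 0.055, 95% interval -1.12 to -0.86, adjusted p 5.291e-07 by limma), just short of the size needed for a call. With a pseudocount of 0.1 in place of 1 the log2 change was -1.06 and GolS2 was called downregulated, as it was without Nip normal replicate 3 (-1.01), without Nip HS replicate 2 (-1.0) or without Nip HS replicate 3 (-1.01). After rescaling the change was -0.53 (adjusted p 3.081e-05 by limma), with a level 1.47-fold lower in HS. The median percentile of GolS2 was 60.4 in Nip HS and 74.4 in Nip normal libraries, and 86.4 in 93-11 HS and 74.1 in 93-11 normal libraries, so that its standing moved in opposite directions in the cultivars.

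The raffinose synthase, which catalyses the step after the galactinol synthases, was not called in either cultivar. It had 51.5, 52.3 and 49.7 FPKM in Nip HS libraries, against 89.1, 85.0 and 93.9 FPKM in Nip normal libraries. In 93-11 it had 53.9, 50.1 and 49.5 FPKM in HS libraries, against 52.8, 50.1 and 48.8 FPKM in normal libraries. The Nip normal libraries stood above all others, and the other 9 libraries overlapped between 48.8 and 53.9 FPKM.

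In Nip the raffinose synthase mean was 51.2 ± 1.35 FPKM in HS and 89.3 ± 4.41 FPKM in normal libraries (SD, n = 3 each), 1.75-fold lower in HS, with a log2 change of -0.79 (SE 0.044, 95% interval -0.89 to -0.69, adjusted p 5.078e-07 by limma). After rescaling the change in Nip was -0.29 (adjusted p 2.198e-04 by limma). In 93-11 the mean was 51.2 ± 2.37 FPKM in HS and 50.6 ± 2.01 FPKM in normal libraries (SD, n = 3 each), and the log2 change of 0.02 (95% interval -0.10 to 0.14, adjusted p 0.7662 by limma) was within the spread between replicates. Rescaling turned the direction in 93-11, to a log2 change of -0.41 (adjusted p 1.728e-04 by limma), with means of 63.6 ± 2.70 in HS and 84.9 ± 5.70 in normal libraries (SD, n = 3 each, on the scale of a sum of 1000000). The median percentile of the raffinose synthase was 92.7 in Nip HS and 94.6 in Nip normal libraries, and 90.5 in 93-11 HS and 91.8 in 93-11 normal libraries, so its standing moved little compared with that of GolS1.

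**Figure D1:**
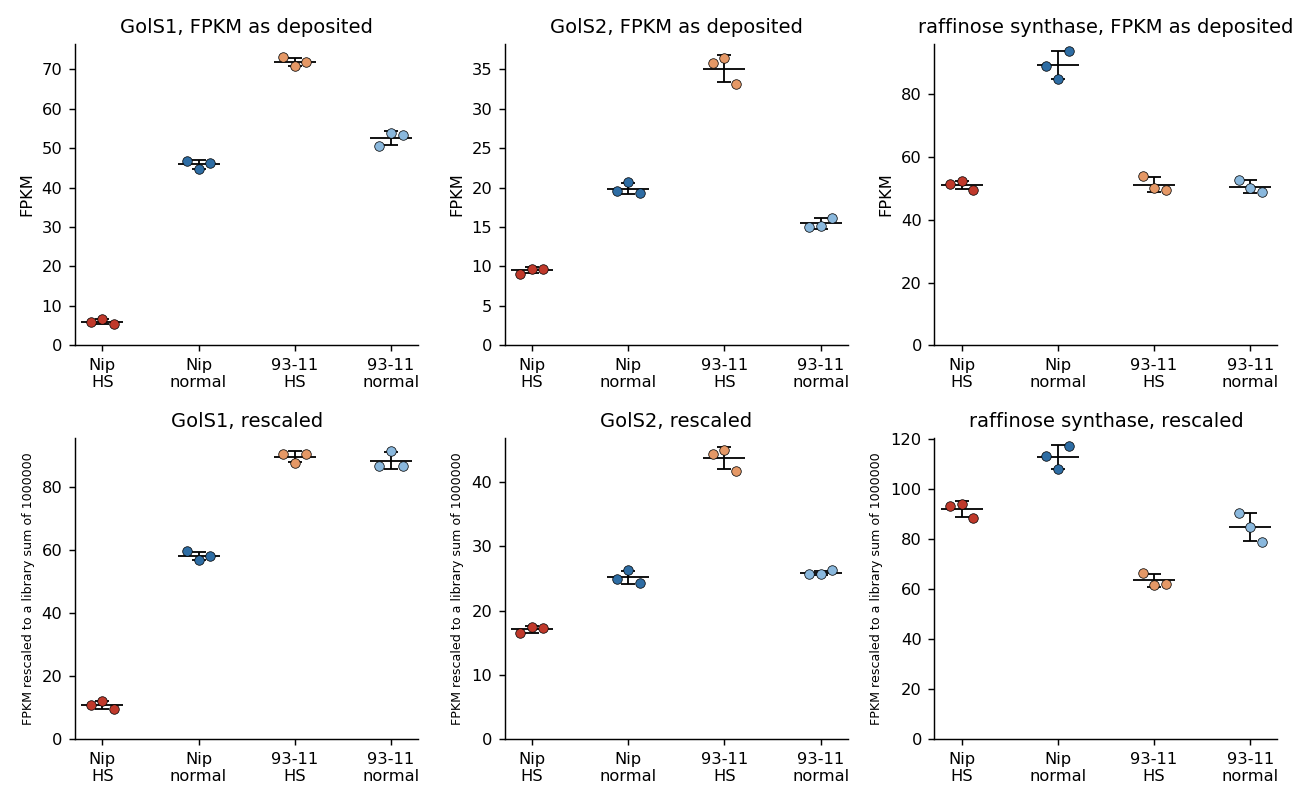
Level of GolS1, GolS2 and the raffinose synthase in each of the 12 libraries, as deposited FPKM (upper row) and as FPKM rescaled to a library sum of 1000000 (lower row). Points are libraries, horizontal lines are means and bars are SD (n = 3). GolS1 was lowest in the 3 Nip HS libraries in both rows (mean 6.0 FPKM), and GolS2 was highest in the 3 93-11 HS libraries in both rows (mean 35.1 FPKM). The order of the group means differed between the rows for the raffinose synthase and, for Nip normal and 93-11 normal, for GolS2.

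Of the 3 members, 1 was called downregulated and none upregulated upon HS in Nip, where 17.8% of all 20724 genes tested were called downregulated, 9.69% were called upregulated and 27.5% were called in either direction. In 93-11, 1 member was called upregulated and none downregulated, where 22.7% of all 20340 genes tested were called upregulated, 27.5% were called downregulated and 50.2% were called in either direction. The groups did not overlap in 3 of 3 members in Nip and in 2 of 3 members in 93-11, beside 81.9% and 87.7% of all genes tested in these cultivars. With 3 members these counts are a description, and they are not set apart from the background.

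The difference between the cultivars in the response to HS was tested as an interaction in one limma fit of all 12 libraries, over 19583 identifiers listed in both. GolS1 responded differently, with a log2 fold change higher by 3.19 in 93-11 than in Nip (SE 0.084, 95% interval 3.01 to 3.38, adjusted p 3.155e-12 by limma). The difference for GolS2 was 2.12 (SE 0.076, 95% interval 1.96 to 2.29, adjusted p 4.801e-11 by limma). Both were called at a difference of at least 1 in size, as were 20.9% of all genes tested in that direction and 40.5% in either direction. Rescaling lowered the differences of single genes by a median of 0.87 on the log2 scale. Both calls were kept after it, with differences of 2.35 for GolS1 (adjusted p 7.360e-11) and 1.26 for GolS2 (adjusted p 3.463e-09) by limma. On that scale 9.29% of genes were called in that direction.

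For the raffinose synthase the difference between the cultivars was 0.81 (SE 0.068, 95% interval 0.66 to 0.96, adjusted p 1.964e-07 by limma), below the size needed for a call, and an adjusted p under 0.01 alone was reached by 70.6% of all genes tested. After rescaling it was -0.12 (95% interval -0.28 to 0.05, adjusted p 0.1674 by limma). With quantile normalization it was 0.22 (95% interval 0.06 to 0.39, adjusted p 1.565e-02 by limma), and with the median ratio 0.55 (adjusted p 1.583e-05 by limma). The size of the difference for this gene therefore depended on the scaling, and with equal sums its interval included 0. The differences of GolS1 and GolS2 stayed positive under the 4 scalings that were run.

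**Figure D2:**
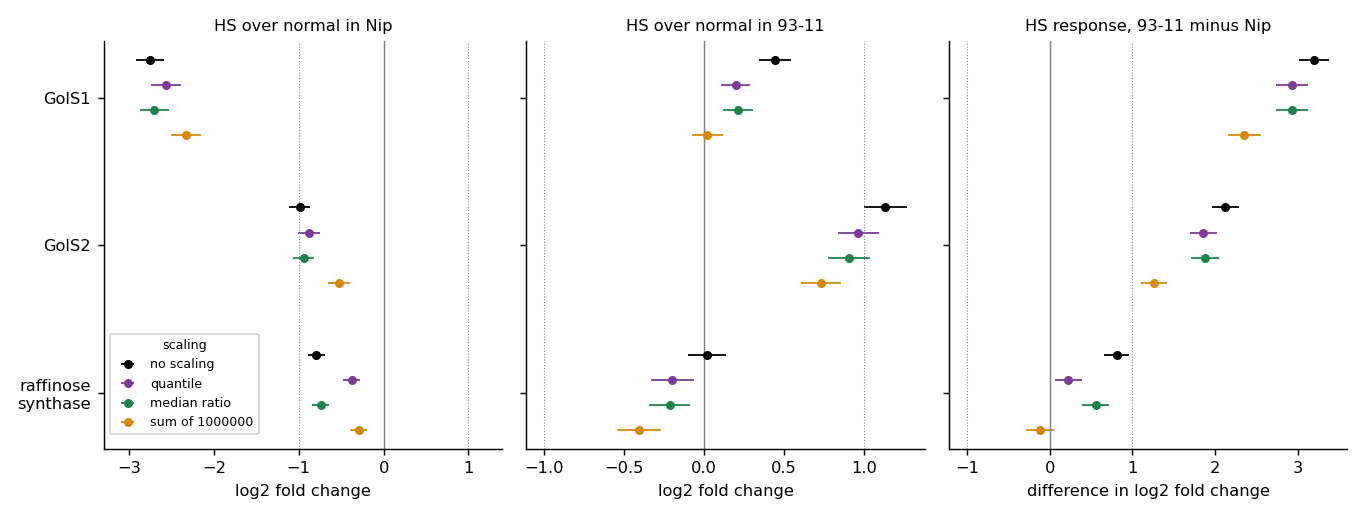
Log2 fold change upon HS in Nip (left) and in 93-11 (middle), and the difference between these responses (right), for each member under 4 scalings of the libraries. Points are limma estimates, bars are 95% intervals, and dotted lines mark a change of 1 in size. GolS1 in Nip and the differences of GolS1 and GolS2 between the cultivars lay beyond the dotted lines under all 4 scalings, whereas GolS2 in 93-11 did so only for the values as deposited (1.13).

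Under HS the GolS1 level was 12-fold higher in 93-11 than in Nip, with a log2 difference of 3.39 (adjusted p 2.303e-14 by limma). GolS2 was 3.69-fold higher in 93-11 HS than in Nip HS, with a log2 difference of 1.78 (adjusted p 3.591e-12 by limma). Both were called, beside 16.5% of all genes tested in that direction and 43.7% in either direction, and stayed called after rescaling, with log2 differences of 2.94 and 1.3. The raffinose synthase was at the same mean level of 51.2 FPKM in 93-11 HS and in Nip HS libraries (95% interval of the log2 difference -0.10 to 0.10, adjusted p 0.9998 by limma), but after rescaling it was lower in 93-11 HS by a log2 difference of -0.53 (adjusted p 6.860e-07 by limma).

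In normal growth none of the 3 members was called between the cultivars, where 20.5% of all genes tested were called. The log2 difference of 93-11 normal over Nip normal was 0.19 for GolS1 (adjusted p 1.090e-02), -0.34 for GolS2 (adjusted p 7.075e-05) and -0.81 for the raffinose synthase (adjusted p 8.286e-09) by limma. After rescaling these differences were 0.59, 0.04 and -0.41. The lower GolS2 level in 93-11 normal libraries was thus not seen on that scale (adjusted p 0.4882 by limma). The rescaled GolS1 difference had an adjusted p of 3.069e-06 by limma. For GolS1 it was also below 0.01 by limma with quantile normalization (0.48, adjusted p 1.637e-05) and the median ratio (0.56, adjusted p 3.762e-06). The raffinose synthase was lower in 93-11 normal than in Nip normal libraries on both scales.

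In order of the group means, GolS1 was highest in 93-11 HS, then in 93-11 normal, Nip normal and Nip HS. The libraries of neighbouring groups did not overlap, although the deposited difference between 93-11 normal and Nip normal missed an adjusted p of 0.01. After rescaling, that GolS1 difference had an adjusted p of 3.069e-06 by limma, still below the size needed for a call. GolS2 was highest in 93-11 HS, then in Nip normal, 93-11 normal and Nip HS, with no overlap between neighbours. Such separation was common between HS and normal, at 81.9% of all genes tested in Nip and 87.7% in 93-11. The share between groups of different cultivars is not given here, so these orders are a description and are not set apart from the background. The raffinose synthase was highest in Nip normal libraries, and the remaining 3 groups could not be ordered beyond their spread. After rescaling, 93-11 HS and 93-11 normal libraries overlapped for GolS1, and 93-11 normal and Nip normal libraries overlapped for GolS2. The rescaled raffinose synthase means were 92.1 ± 3.13 in Nip HS, 113 ± 4.67 in Nip normal, 63.6 ± 2.70 in 93-11 HS and 84.9 ± 5.70 in 93-11 normal libraries (SD, n = 3 each), with overlap between Nip HS and 93-11 normal libraries alone.

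Ratios within a library are free of the scaling between libraries. GolS2 made up 60.5%, 59.2% and 64.5% of the summed FPKM of both galactinol synthases in Nip HS libraries, against 29.5%, 31.6% and 29.5% in Nip normal libraries. In 93-11 the GolS2 share was 32.9%, 34.0% and 31.6% in HS libraries, against 22.9%, 22.0% and 23.3% in normal libraries. GolS2 was thus the more abundant galactinol synthase transcript only in Nip HS libraries, and its share was higher in HS than in normal libraries of both cultivars without overlap.

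The difference in the GolS2 share was 31.2 percentage points in Nip (61.4% ± 2.75 in HS and 30.2% ± 1.23 in normal libraries, SD, n = 3 each, two-sided exact permutation p = 0.1). In 93-11 it was 10.1 percentage points (32.8% ± 1.19 in HS and 22.7% ± 0.664 in normal libraries, SD, n = 3 each, two-sided exact permutation p = 0.1). With 3 libraries against 3, a p of 0.1 is the smallest this test can give, so it cannot pass 0.05. The difference between the cultivars in this shift was not tested.

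Summed over both galactinol synthases, the level was 15.5 ± 0.769 FPKM in Nip HS and 65.8 ± 0.548 FPKM in Nip normal libraries (SD, n = 3 each), 4.24-fold lower in HS. In 93-11 the sum was 107 ± 1.96 FPKM in HS and 68.0 ± 2.20 FPKM in normal libraries (SD, n = 3 each), a ratio of 1.57. As deposited, the sums of the normal libraries of the cultivars lay close to each other, with overlap. They were 65.5, 68.9 and 69.6 FPKM in 93-11 and 66.4, 65.4 and 65.6 FPKM in Nip. After rescaling, the GolS1 mean was 58.1 in Nip normal and 88.1 in 93-11 normal libraries, and that of GolS2 was 25.2 and 25.9. The closeness of the normal sums was thus not kept on that scale. The rescaled ratio of HS to normal in 93-11 was 1.01 for GolS1 and 1.68 for GolS2. In Nip the rescaled levels were 5.38-fold and 1.47-fold lower in HS.

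The following ratios to the raffinose synthase were chosen after the values had been seen and are given as a description. Summed galactinol synthase FPKM was 0.292, 0.314 and 0.304 times that of the raffinose synthase in Nip HS libraries, against 0.746, 0.769 and 0.699 times in Nip normal libraries. In 93-11 the ratio was 2.02, 2.14 and 2.12 in HS libraries, against 1.24, 1.38 and 1.43 in normal libraries. Galactinol synthase transcripts were thus below those of the raffinose synthase in all Nip libraries and above them in all 93-11 libraries.

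The mean ratio was 2.43-fold lower in HS than in normal libraries of Nip and 1.55-fold higher in HS than in normal libraries of 93-11. Taken singly, GolS1 was 4.40-fold lower relative to the raffinose synthase in Nip HS than in Nip normal libraries, whereas GolS2 was 1.20-fold lower (0.186 ± 0.00967 and 0.223 ± 0.0186, SD, n = 3 each). In 93-11 the ratio to the raffinose synthase was 1.35-fold higher in HS than in normal libraries for GolS1 and 2.24-fold higher for GolS2. Relative to the raffinose synthase, the fold difference between HS and normal libraries was thus larger for GolS1 in Nip and larger for GolS2 in 93-11.

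**Figure D3:**
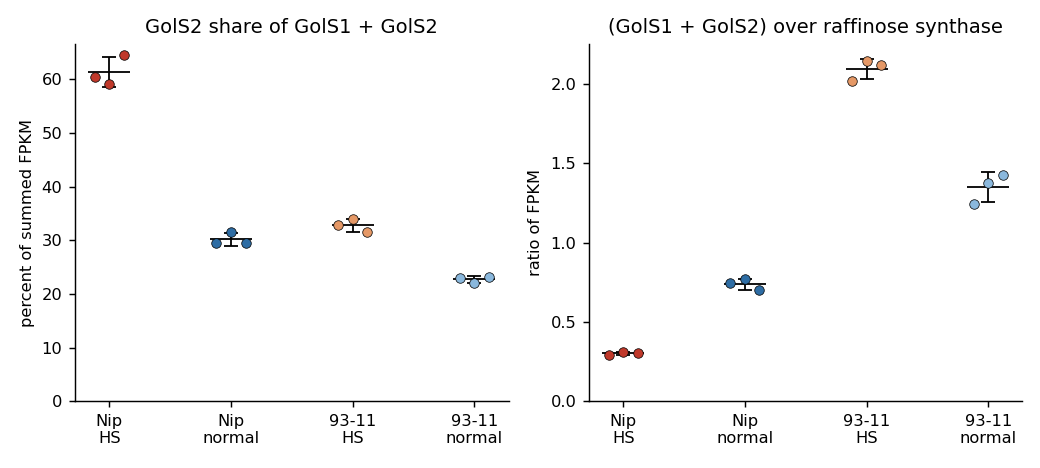
Share of GolS2 in the summed FPKM of both galactinol synthases (left, percent) and summed galactinol synthase FPKM over raffinose synthase FPKM (right, ratio), by library. Points are libraries, horizontal lines are means and bars are SD (n = 3). The GolS2 share averaged 61.4% in Nip HS and 30.2% in Nip normal libraries, and the ratio on the right averaged 2.09 in 93-11 HS and 1.35 in 93-11 normal libraries.

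Over the 12 libraries, log2(FPKM + 1) of GolS1 and GolS2 had a Pearson r of 0.845, whereas the raffinose synthase had an r of 0.201 with GolS1 and of 0.121 with GolS2. These are descriptions over 12 libraries in 4 groups that share cultivar, treatment and scaling, and they carry no test.

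The identifiers whose pattern was most like that of each member were taken as the 3 with the highest Pearson r of log2(FPKM + 1) over the 12 libraries, among 9492 identifiers listed in both cultivars with a mean of at least 10 FPKM. For GolS1 they were LOC_Os03g05750 (r = 0.998), LOC_Os09g29310 (r = 0.997) and LOC_Os03g32230 (r = 0.997). LOC_Os03g05750 averaged 2.48 FPKM in Nip HS, 31.0 FPKM in Nip normal, 50.1 FPKM in 93-11 HS and 39.1 FPKM in 93-11 normal libraries, low in Nip HS alone as GolS1 was.

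For GolS2 the identifiers were LOC_Os02g54080 (r = 0.996), LOC_Os08g36150 (r = 0.995) and LOC_Os01g62970 (r = 0.995). LOC_Os02g54080 averaged 20.2 FPKM in Nip HS, 45.7 FPKM in Nip normal, 90.7 FPKM in 93-11 HS and 31.6 FPKM in 93-11 normal libraries, with the same order of groups as GolS2.

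For the raffinose synthase they were LOC_Os12g27330 (r = 0.989), LOC_Os10g36170 (r = 0.986) and LOC_Os06g06160 (r = 0.985). LOC_Os12g27330 averaged 341 FPKM in Nip normal, 0.237 FPKM in Nip HS and 0.0300 FPKM in 93-11 normal libraries and was listed at 0 in all 93-11 HS libraries. It was thus near 0 outside Nip normal libraries, unlike the raffinose synthase, so that r was high although levels and changes differed in size. LOC_Os06g06160 was closer in size, with means of 46.1 FPKM in Nip HS, 95.2 FPKM in Nip normal, 47.9 FPKM in 93-11 HS and 47.4 FPKM in 93-11 normal libraries.

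To set the members beside their pathway, a list of 16 identifiers was drawn up from general knowledge for the supply of myo-inositol and UDP-galactose and for the raffinose synthase-like and alpha-galactosidase families. No annotation of these identifiers was used here, so no role is given to any one of them. The counts and medians pool supply with breakdown, so they do not show a change of synthesis alone. In 93-11, 8 of the 13 tested were upregulated, 2 were downregulated and 3 were not called, with a median log2 fold change of 1.86, beside 0.03 over all genes tested, of which 22.7% were upregulated and 27.5% downregulated. In Nip, 3 of the 14 tested were upregulated, 3 were downregulated and 8 were not called, with a median of -0.11, beside -0.04 over all genes, of which 9.69% were upregulated and 17.8% downregulated. After rescaling the counts were 8 upregulated and 3 downregulated in 93-11, with a median of 1.44 beside -0.35 over all genes, and 5 upregulated and 1 downregulated in Nip, with a median of 0.39 beside 0.42. On that scale 16.3% of all genes were called upregulated and 35.2% downregulated in 93-11, and 23.5% were called upregulated and 11.9% downregulated in Nip.

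Ranked by log2 change of deposited values on the log2(FPKM + 1) scale, the largest change of the list in 93-11 was that of LOC_Os06g07600, with 2302, 2372 and 2391 FPKM in HS libraries, against 58.4, 57.5 and 63.2 FPKM in normal libraries (log2 change 5.28, adjusted p 2.055e-11 by limma). It also rose in Nip, with means of 214 FPKM in HS and 28.9 FPKM in normal libraries (log2 change 2.85). The largest change of the list in Nip was that of LOC_Os10g35110, with 955, 960 and 978 FPKM in HS libraries, against 97.3, 96.7 and 96.8 FPKM in normal libraries (log2 change 3.30, adjusted p 1.679e-11 by limma). In 93-11 it rose too, with means of 597 FPKM in HS and 102 FPKM in normal libraries (log2 change 2.54). These identifiers rose in both cultivars, unlike any member.

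The smallest changes of the list on that scale, which other identifiers had after rescaling, were those of LOC_Os03g09250 in 93-11, with means of 133 FPKM in HS and 134 FPKM in normal libraries (log2 change -0.01, adjusted p 0.7901 by limma), and of LOC_Os10g35070 in Nip (log2 change -0.10, adjusted p 2.608e-02 by limma). LOC_Os09g35800 was called in opposite directions in the cultivars. It rose in 93-11, with means of 145 FPKM in HS and 39.3 FPKM in normal libraries (log2 change 1.86, adjusted p 2.512e-09 by limma), and fell in Nip, with means of 16.3 FPKM in HS and 36.0 FPKM in normal libraries (log2 change -1.09, adjusted p 1.975e-07 by limma). The call in Nip was lost after rescaling (-0.62). The response was called higher in 93-11 than in Nip for 7 of the 13 identifiers tested and lower for 0, beside 20.9% and 19.6% of all genes, and after rescaling it was higher for 5 and lower for 4, beside 9.29% and 41.8% of all genes.

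**Figure D4:**
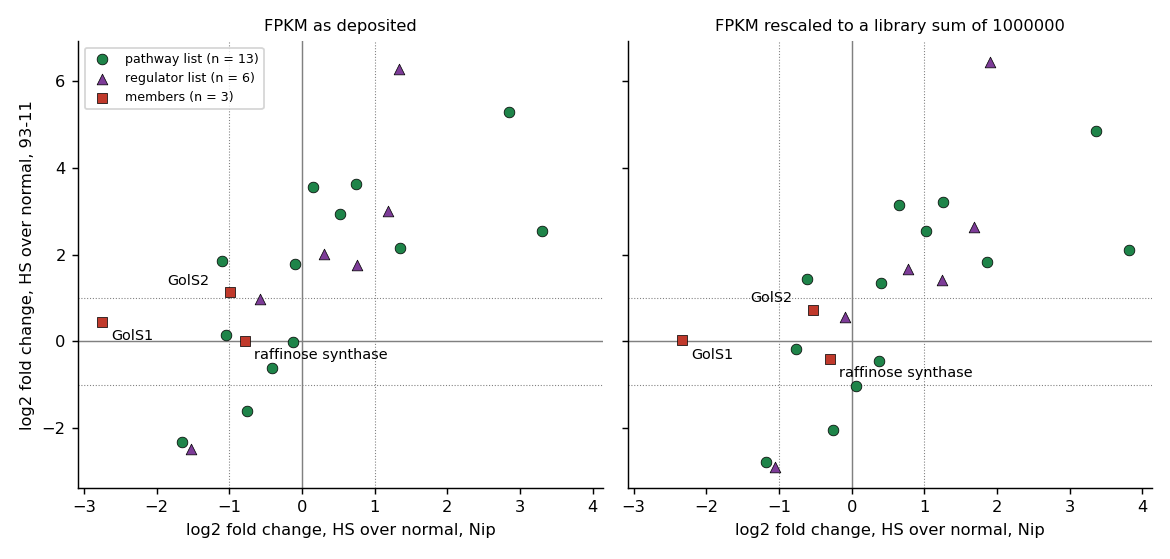
Log2 fold change upon HS in 93-11 (vertical axis) against that in Nip (horizontal axis) for the members, the pathway list and the regulator list, from deposited FPKM (left) and after rescaling to a library sum of 1000000 (right). Each point is an identifier tested in both cultivars, and dotted lines mark a change of 1 in size. GolS1 stood at the far left of both panels (-2.75 and -2.33 in Nip), and LOC_Os06g07600 and LOC_Os10g35110 of the pathway list stood at the far right.

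A second list held 6 identifiers for heat shock factors of subclass A2 and DREB factors, the families named above as regulators in Arabidopsis. In 93-11, 4 were upregulated, 1 was downregulated and 1 was not called, with a median log2 change of 1.89, beside 0.03 over all genes, of which 22.7% were upregulated and 27.5% downregulated. In Nip, 2 were upregulated, 1 was downregulated and 3 were not called, with a median of 0.53, beside -0.04 over all genes, of which 9.69% were upregulated and 17.8% downregulated. After rescaling the counts in 93-11 stayed at 4 and 1, and those in Nip were 3 upregulated and 1 downregulated, beside 16.3% upregulated and 35.2% downregulated of all genes in 93-11 and 23.5% and 11.9% of all genes in Nip. The response was called higher in 93-11 than in Nip for 5 of the 6 and lower for 0, beside 20.9% and 19.6% of all genes. After rescaling it was higher for 1 and lower for 1, beside 9.29% and 41.8% of all genes.

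On the same scale, the largest change of this list in 93-11 was that of LOC_Os03g53340, with means of 90.9 FPKM in HS and 0.187 FPKM in normal libraries (log2 change 6.28, adjusted p 5.761e-11 by limma), and in Nip it averaged 1.67 FPKM in HS and 0.0561 FPKM in normal libraries (log2 change 1.34, adjusted p 2.525e-06 by limma). In Nip the largest on that scale was the fall of LOC_Os09g35030, with means of 18.4 FPKM in HS and 55.1 FPKM in normal libraries (log2 change -1.53, adjusted p 8.672e-08 by limma). After rescaling the order turned, with log2 changes in Nip of 1.91 for LOC_Os03g53340 and -1.05 for LOC_Os09g35030. In the ratio of deposited means, LOC_Os03g53340 was 29.9-fold higher in Nip HS, over a normal mean near 0 (0.0561 FPKM). LOC_Os09g35030 was 3.0-fold lower in that ratio. LOC_Os09g35030 fell in 93-11 too, with means of 48.6 FPKM in HS and 273 FPKM in normal libraries (log2 change -2.47). The smallest changes on the deposited scale were those of LOC_Os10g28340 in Nip (0.30) and LOC_Os03g58160 in 93-11 (0.97), which were not called. Whether any of these identifiers acts on GolS1 or GolS2 was not tested.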

How the data were processed

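The 12 files hold 1 FPKM value per gene and library, computed by the authors and deposited without counts, so depth is unknown and precision rests on the 3 replicates. The study's methods name STAR alignment to the genome of each cultivar, reads with up to 20 matches kept, featureCounts and DESeq2, whereas the submitters' processing notes name HISAT2 2.0.4, StringTie 1.3.4d and DESeq2. Which of these tools made the FPKM values, and the genome builds, are not given in the sources used here. In low FPKM values (under 0.15) the most common log2 ratio of HS to normal was -0.63 to -0.36 in Nip and 0.22 to 0.74 in 93-11 over pairs of libraries, which gave no single relative depth. Reads shared by similar genes may be split between them.

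Genes with at least 1 FPKM in at least 3 libraries were tested on the log2(FPKM + 1) scale with limma 3.58.1 (R 4.3.3, with a prior that follows the mean), by cultivar and as an interaction over all 12, with Benjamini-Hochberg adjustment over all genes tested. The pseudocount understates changes of low genes. All 3 members passed the filter. Of the lists, 2 pathway identifiers in Nip and 3 in 93-11 were not tested, being low or unlisted. Fits were checked on simulated data. Figures were drawn with Python 3.11.15 and matplotlib 3.10.9. The members and lists were chosen with earlier results of these data known. All members are named, and list identifiers are named where their change was the largest or smallest in a cultivar or was called in opposite directions. Alternatives were a pseudocount of 0.1, no filter, 3 scalings, a replicate block, one fit of all 12 libraries and each library left out.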

Additional observations from a re-analysis of the deposited data

Results flagged for a closer look

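The response to HS differed between the cultivars by the interaction test of limma for each of the 3 members, with Benjamini-Hochberg adjustment over all genes tested. For GolS1 the log2 fold change was higher in 93-11 than in Nip by 3.19 (adjusted p 3.155e-12), with 3 of 3 HS libraries above the normal libraries in 93-11 and 3 of 3 below them in Nip. For GolS2 the difference was 2.12 (adjusted p 4.801e-11), with the same pattern of libraries. A full separation of this kind, in either direction, was common, at 81.9% of all genes tested in Nip and 87.7% in 93-11. With equal sums it was lost for GolS1 in 93-11, at 87.4 to 90.4 in HS and 86.6 to 91.2 in normal libraries. The rescaled log2 change of GolS1 in 93-11 was 0.02 (adjusted p 0.6597 by limma). It was 0.20 with quantile normalization (adjusted p 1.359e-03) and 0.21 with the median ratio (adjusted p 1.204e-03) by limma. With equal sums the differences between the cultivars were 2.35 for GolS1 and 1.26 for GolS2. For the raffinose synthase the difference was 0.81 (adjusted p 1.964e-07), with 3 of 3 HS libraries below the normal libraries in Nip and overlap in 93-11, and it was -0.12 after rescaling to equal sums. An adjusted p under 0.01 alone was reached by 70.6% of all genes tested for this difference.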

How the results depend on the processing

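Of 216 values under another setting, 192 kept their direction and their side of the threshold or stayed within 1.5 times for counts, and of 252 values with 1 library left out 245 did. After rescaling to a sum of 1000000, the raffinose synthase difference between the cultivars changed direction, to -0.12 (95% interval across 0, -0.28 to 0.05). The raffinose synthase also changed direction in 93-11 (-0.41) and in 93-11 over Nip under HS (-0.53). GolS2 did so in 93-11 over Nip in normal growth (0.041). After scaling by the median ratio, the raffinose synthase in 93-11 (-0.22) and GolS2 in 93-11 over Nip in normal growth (0.011) did so, and quantile normalization turned the raffinose synthase in 93-11 (-0.20) and in 93-11 over Nip under HS (-0.29). With 1 library left out, the raffinose synthase ranged across 0, from -0.0201 to 0.0473 in 93-11 (0.0169 with all libraries; below 0 without normal replicate 3 or HS replicate 1) and from -0.0370 to 0.0229 in 93-11 over Nip under HS (below 0 without Nip HS replicate 3 or 93-11 HS replicate 1), and neither was called. The call of GolS2 in 93-11 was lost with quantile normalization (0.97), the median ratio (0.91) and equal sums (0.73). GolS2 in Nip gained a call with a pseudocount of 0.1 (-1.06) and ranged from -1.01 to -0.96 with 1 library left out. The cause of these shifts was not tested.

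Counts over all genes moved with scaling. With equal sums, 4871 genes rose in Nip (2008 as deposited), the interaction was higher for 1819 (4095) and lower for 8183 (3845), and 8145 were lower in 93-11 than in Nip under HS (5323). In normal growth 2463 genes with equal sums and 2174 with the median ratio were higher in 93-11 (1398), and 1680 with quantile normalization, 1712 with equal sums and 1599 with the median ratio were lower (2622). Of the pathway list in Nip, 5 rose with equal sums (3), and 1 fell with quantile normalization and 1 with equal sums (3).

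Whether replicate numbers pair the samples was not settled, and the main fits used no pairing. Deviations of same-numbered HS and normal libraries correlated weakly, at 0.0336 to 0.0424 in Nip and at -0.0596 to 0.0532 in 93-11. Every Nip HS library correlated best with its own number, and this was not so in 93-11. With a replicate block the log2 change was -2.75 for GolS1, -0.99 for GolS2 and -0.79 for the raffinose synthase in Nip, and 0.44, 1.13 and 0.02 in 93-11, and 2014 genes rose and 3691 fell in Nip, and 4633 rose and 5593 fell in 93-11. The block changed no call of a member. Without counts, no counting error can be given, and 3 libraries a group limit the precision.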
